A study of Arabidopsis thaliana with 6 samples.

Results

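Auxin acts on transcription by removing Aux/IAA repressors, which frees the auxin response factors they hold, and some of the first genes to be transcribed encode further regulators. Transcription factors of the LBD family start lateral root formation downstream of this step, and class II HD-ZIP factors such as HAT2 repress their targets. Auxin itself moves between cells through PIN carriers, whose activity depends on phosphorylation by AGC kinases such as WAG2, and its redistribution across an organ drives gravitropic bending.

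Described here are 6 Arabidopsis thaliana genes of this pathway: the LBD factors LBD16 (AT2G42430, probe set 265856_at) and LBD29 (AT3G58190, 251565_at), the Aux/IAA genes IAA20 (AT2G46990, 266753_at) and IAA29 (AT4G32280, 253423_at), the homeodomain gene HAT2 (AT5G47370, 248801_at) and the kinase gene WAG2 (AT3G14370, 258367_at). They were chosen by symbol out of 13286 genes with a named probe set, with their levels and differences on these same arrays already known. Each gene had 1 single-gene probe set, so the rule of taking the probe set with the highest mean made no choice. All 6 varied between arrays, as did 3045 of the 13286 genes. Because the contrast between NJ15 and mock was known when the genes were chosen, their values in it are a description and were not tested.

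Both groups were wild-type Col-0 seedlings that grew vertically for 4 days and were rotated by 90 degrees after a spray, with RNA of whole seedlings taken 8 h later. One group of 3 biological replicates was sprayed with mock solution and the other 3 with 10 µM NJ15, a tetrazole acetic acid ethyl ester with a dichlorophenyl ring. There was no unrotated group and no group given auxin. In RNA of whole seedlings, fewer cells of a type and less RNA per cell cannot be told apart.

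Values are log2 expression values, 1 per probe set and array, so a difference of 1 is a doubling. Of 22746 probe sets in the comparison, 16602 (73.0%) had a span of at most 0.01 over the arrays, and such a probe set, called flat here, carries no information on a change. The other 6144 are called varying, and the background shares below refer to them unless another base is named. Over these, the median difference between NJ15 and mock was -0.0062 and the median size of a difference, without its sign, was 0.09.

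The 6 genes had no common direction of difference between treatments, and whether they shared a shift was not tested. In 3 of them the NJ15 mean was higher and in 3 it was lower, with differences from -0.45 for LBD16 to 0.25 for IAA29 and a median of 0.02. In none of the 6 did the NJ15 arrays lie wholly on one side of the mock arrays, and 12.5% of varying probe sets had groups that did not overlap. Nothing is read from this count, since the contrast was known when the genes were chosen.

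LBD16, which with its relatives starts the divisions of lateral root founder cells, had the lowest difference of the 6. Its level was 7.87, 7.90 and 7.08 in mock replicates 1, 2 and 3, and 7.26, 6.92 and 7.33 in NJ15 replicates 1, 2 and 3. All 3 NJ15 arrays lay below mock replicates 1 and 2, and mock replicate 3 lay inside the NJ15 range. Mock seedlings averaged 7.61 ± 0.47 and NJ15 seedlings 7.17 ± 0.22 (SD, n = 3 each). The difference was -0.45 with a standard error of 0.29, so mock stood 1.36-fold above NJ15. This was 1.23 times the pooled SD of the replicates in size. The share of varying probe sets with a larger difference was 9.4% for LBD16, 14.5% for WAG2, 20.1% for IAA29, 22.9% for IAA20, 53.3% for HAT2 and 67.0% for LBD29, from which nothing is read, the contrast having been known. The LBD16 difference kept its sign when any 1 array was left out, between -0.71 without mock replicate 3 and -0.30 without mock replicate 2.

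LBD29, an LBD factor of the same lateral root pathway, had nearly equal group means. Its level was 6.44, 6.68 and 6.36 across mock replicates and 6.31, 6.41 and 6.61 across NJ15 replicates, in order of replicate number. High and low values occurred in both groups, with mock replicate 2 and NJ15 replicate 3 highest. The means of 6.49 ± 0.17 and 6.44 ± 0.15 (SD, n = 3 each) differed by -0.05 with a standard error of 0.13. The sign turned to 0.05 without mock replicate 2 and to 0.02 without NJ15 replicate 1.

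**Figure D1:**
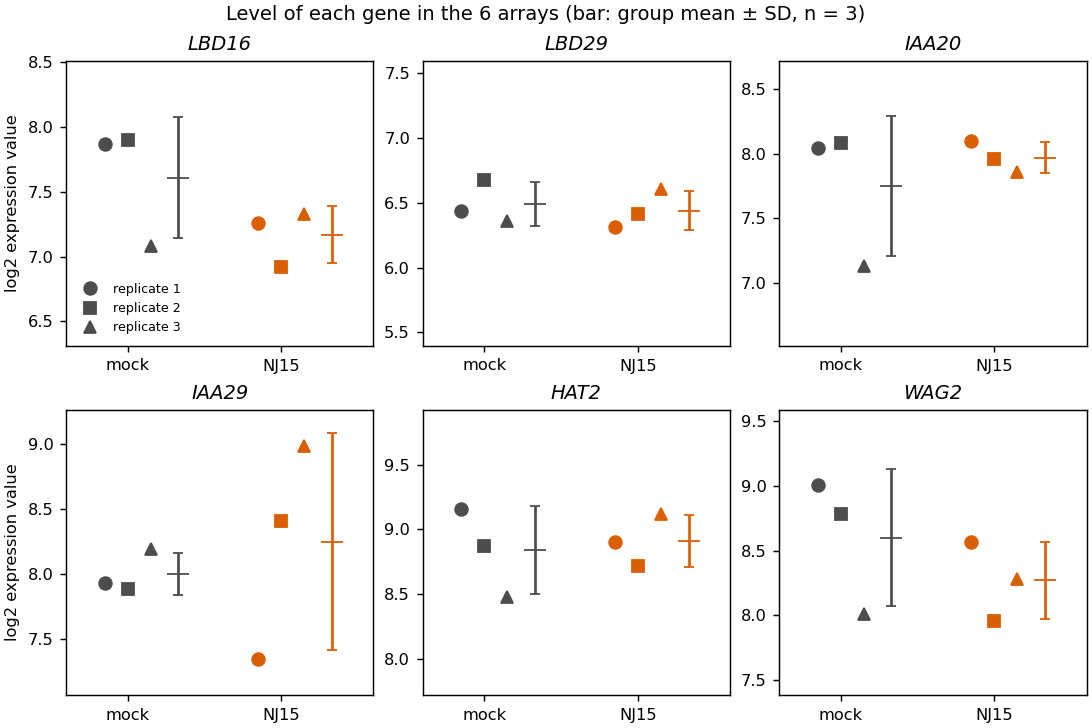
Log2 expression value (vertical axis) of each of the 6 genes in the 3 mock and 3 NJ15 arrays; point shape marks the replicate and the bar beside the points is the group mean ± SD. Every axis spans the same number of log2 units, mock replicate 3 is the lowest mock array of every gene but IAA29, and the NJ15 arrays of IAA29 are spread from 7.34 to 8.99.

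IAA20 encodes an Aux/IAA protein without the degron that makes other family members short-lived in auxin. It stood at 8.04, 8.08 and 7.13 in mock replicates 1, 2 and 3 and at 8.10, 7.96 and 7.86 in NJ15 replicates 1, 2 and 3. Thus 5 of the 6 arrays lay between 7.86 and 8.10, and mock replicate 3 alone lay far below them. The mock mean was 7.75 ± 0.54 and the NJ15 mean 7.97 ± 0.12 (SD, n = 3 each), a difference of 0.22 with a standard error of 0.31. Without mock replicate 3 the difference was -0.09, so its sign rested on that array; without mock replicate 2 it was 0.39.

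IAA29, an Aux/IAA gene that phytochrome-interacting factors also induce, behaved differently from IAA20. Its mock arrays were close together at 7.93, 7.88 and 8.19, while NJ15 replicates 1, 2 and 3 stood at 7.34, 8.41 and 8.99. The NJ15 group therefore held both the lowest array and the highest pair. Its span within NJ15 was 1.65 log2 units against 0.31 within mock, and 1.0% of varying probe sets had a wider span in NJ15. The means were 8.00 ± 0.16 in mock and 8.25 ± 0.84 in NJ15 seedlings (SD, n = 3 each). The difference of 0.25, with a standard error of 0.49, was 0.41 times the pooled SD. Leaving out NJ15 replicate 1 gave 0.70 and leaving out NJ15 replicate 3 gave -0.12, so its sign and size rested on single NJ15 arrays.

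HAT2, an early auxin-induced gene of the class II HD-ZIP factors, had a level of 9.16, 8.87 and 8.48 across mock replicates and 8.90, 8.72 and 9.12 across NJ15 replicates. The NJ15 arrays lay within the mock range throughout. The means of 8.84 ± 0.34 and 8.91 ± 0.20 (SD, n = 3 each) differed by 0.08 with a standard error of 0.22. The difference turned to -0.10 without mock replicate 3 and to -0.02 without NJ15 replicate 3.

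WAG2 encodes a kinase that phosphorylates PIN auxin carriers and acts with its relative WAG1 in root waving. Its level was 9.01, 8.78 and 8.01 in mock replicates 1, 2 and 3 and 8.57, 7.96 and 8.28 in NJ15 replicates 1, 2 and 3. As for LBD16, the NJ15 arrays lay below mock replicates 1 and 2, and mock replicate 3 fell among them. The means were 8.60 ± 0.53 in mock and 8.27 ± 0.30 in NJ15 seedlings (SD, n = 3 each), a difference of -0.33 with a standard error of 0.34. That is 0.76 times the pooled SD. The sign held with each array left out, between -0.62 without mock replicate 3 and -0.12 without mock replicate 1; it was -0.17 without NJ15 replicate 2.

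**Figure D2:**
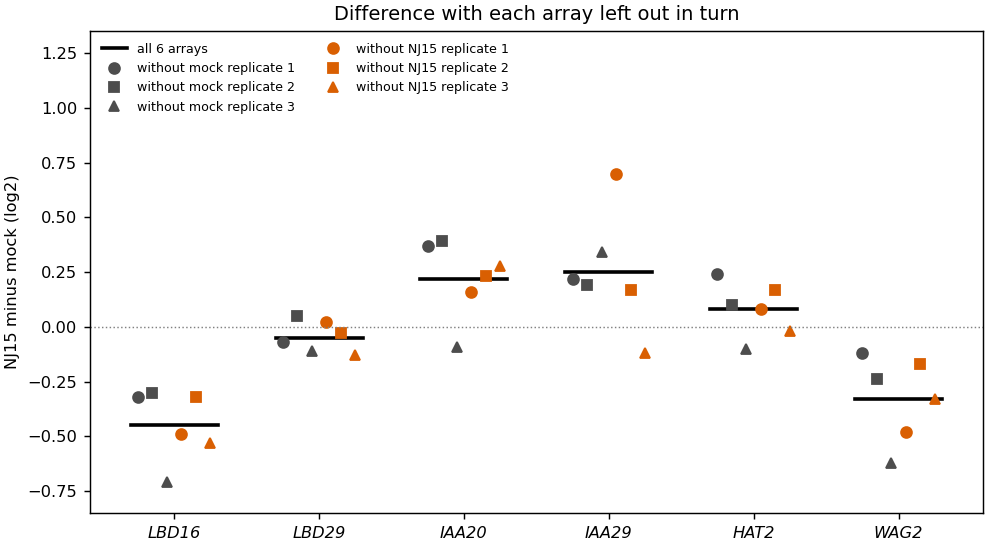
NJ15 minus mock in log2 units (vertical axis) for each of the 6 genes; the black bar uses all 6 arrays and each point leaves out the array its colour and shape name. LBD16 and WAG2 stay below 0 in each leave-out, and the points of the other 4 genes lie on both sides of 0.

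Mock replicate 3 recurred in these profiles. It was the lowest mock array for 5 of the 6 genes, all but IAA29, against 43.5% of varying probe sets. Nothing is read from this count, since the levels were known when the genes were chosen. For IAA29 mock replicate 3 was the highest mock array, as for 39.4% of varying probe sets, so it was often the extreme mock array across the whole table. Relative to the mean of mock replicates 1 and 2, mock replicate 3 was lower by 1.91-fold for IAA20, 1.85-fold for WAG2, 1.75-fold for LBD16, 1.45-fold for HAT2 and 1.15-fold for LBD29. For IAA29 it was 1.21-fold higher. On the log2 scale the change was -0.94 for IAA20, and 4.9% of varying probe sets had a lower value; the median over varying probe sets was -0.01. Mock replicates 1 and 2 differed from each other by 0.03 for LBD16, 0.04 for IAA20, 0.06 for IAA29, 0.23 for WAG2, 0.24 for LBD29 and 0.28 for HAT2, with a median of 0.14 over varying probe sets. For LBD29 that gap was wider than the -0.20 of mock replicate 3.

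The mock arrays were more spread than the NJ15 arrays for 5 of the 6 genes, though by little for LBD29. Of varying probe sets 72.2% likewise had the wider span in mock, and nothing is read from the count of genes. For WAG2 the mock arrays spanned 1.01 and the NJ15 arrays 0.60; for IAA20 these spans were 0.95 and 0.24. LBD16 had spans of 0.82 and 0.40, and HAT2 of 0.67 and 0.39. The span of LBD29 was 0.33 in mock and 0.30 in NJ15, close to the median mock span of varying probe sets, 0.35. IAA29 was the exception with its wide NJ15 group.

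**Figure D3:**
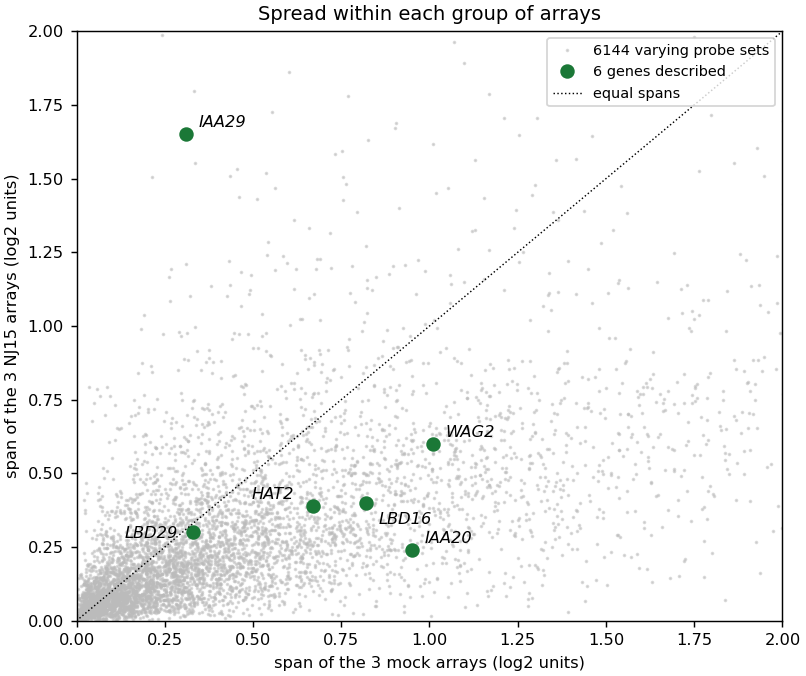
Span of the 3 mock arrays (horizontal axis) against the span of the 3 NJ15 arrays (vertical axis), in log2 units, for the 6144 varying probe sets (grey) and the 6 genes (green); 222 probe sets lie beyond the axes. IAA29 lies far above the dotted line of equal spans, at 0.31 and 1.65, and the other 5 genes lie below it.

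The mock arrays also differed among themselves in the mean level of green tissue transcripts. Of the 6 arrays, mock replicate 1 had the lowest mean and mock replicate 3 the highest. Of 30 listed photosynthetic genes 6 had a named probe set, LHCB4.3 was flat, and LHCB4.1, LHCB4.2, RCA, PRK and SBPASE varied. Their mean level was 10.33, 11.14 and 11.74 in mock replicates 1, 2 and 3 and 10.72, 11.35 and 11.29 in NJ15 replicates 1, 2 and 3. PRK alone was lowest in NJ15 replicate 1, at 10.04 against 10.15 in mock replicate 1. The group means, 11.07 ± 0.71 in mock and 11.12 ± 0.34 in NJ15 seedlings (SD, n = 3 each), differed by 0.05. Mock replicate 3 was thus the highest array for these markers and the lowest mock array for 5 of the 6 auxin-related genes. Those genes were chosen with their levels known, so nothing is read from the contrast.

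Among the 15 pairs of arrays, HAT2 and WAG2 each ran opposite to this marker mean in 13, IAA20 in 12, LBD16 in 11, LBD29 in 9 and IAA29 in 5. The share of varying probe sets that ran opposite in at least as many pairs was 10.2% for HAT2 and WAG2, 18.3% for IAA20, 26.8% for LBD16, 43.8% for LBD29 and 72.9% for IAA29. With the marker mean as a covariate, a fit chosen after the data were seen, the differences were -0.42 for LBD16, -0.29 for WAG2, 0.25 for IAA20, 0.22 for IAA29, 0.10 for HAT2 and -0.05 for LBD29. Because the marker mean differed by 0.05 between the groups, this covariate could hardly move a difference between them, so these values say nothing on tissue content. Of 28 listed root markers 3 had a named probe set. The root hair expansins EXPA7 and EXPA18 were flat, and PYK10, a beta-glucosidase abundant in roots, stood at 13.29, 13.32 and 13.05 across mock replicates and 13.21, 13.18 and 13.27 across NJ15 replicates. Mock replicate 3 was the lowest of the 6 arrays for PYK10, the only varying root marker, and for 29.5% of varying probe sets. Nothing on root content is read from this gene. The part of tissue content in the profiles of the 6 genes was not tested.

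**Figure D4:**
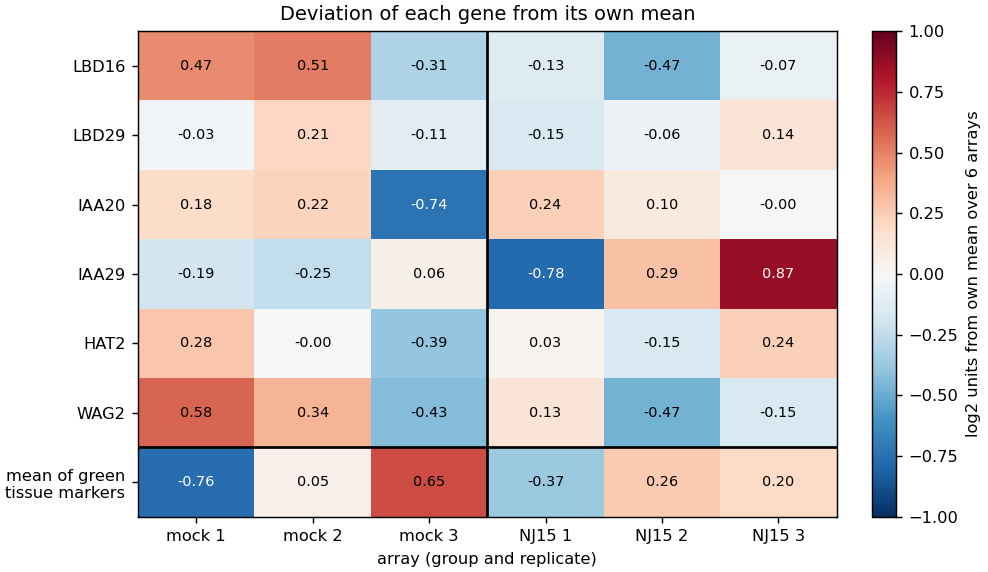
Deviation of each gene from its own mean over the 6 arrays, in log2 units, by array, with the mean of the 5 varying green tissue markers in the bottom row; the vertical line parts mock from NJ15. LBD16 and WAG2 have much the same row, IAA20 is set apart by mock replicate 3, and IAA29 by NJ15 replicates 1 and 3.

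Set against each other, LBD16 and WAG2 had the most similar profiles. After each gene's own mean was subtracted, their values differed by 0.12 log2 units on average over the 6 arrays, and they lay on the same side of their means in 5 of 6 arrays. The next closest pair, LBD29 and HAT2, differed by 0.20. LBD16 and LBD29 differed by 0.27 and IAA20 and IAA29 by 0.62, so family relatives were not the closest pairs. The widest gap was 0.76, between IAA29 and WAG2, which lay on opposite sides of their means in every array. These distances are small for genes that vary little, as LBD29 does, so they describe the profiles and rank no relation.

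By the same measure, the genes most like each of the 6 were sought among 3039 other named varying genes. They were picked for a small distance, so the median candidate given beside them is a scale and no test. Likeness in single arrays follows from the same choice. AT5G57760 was nearest to LBD16 at 0.067 log2 units, where the median candidate was at 0.336, followed by TRM28 at 0.070 and AT3G23090 at 0.097. AT5G57760 stood at 8.79, 8.79 and 7.95 across mock replicates and 8.11, 7.61 and 8.11 across NJ15 replicates, so it had the low mock replicate 3 and low NJ15 replicate 2 of LBD16. The genes nearest to WAG2 were AT1G52200 at 0.066, AT2G39210 at 0.093 and AT4G15390 at 0.094, against a median of 0.355. Those nearest to IAA20 were AT1G11670 at 0.052, AT3G48020 at 0.056 and JAL22, a gene of the jacalin-related lectin family, at 0.063, against a median of 0.267. In each of these the low array was mock replicate 3, as for JAL22 with 12.22, 12.25 and 11.28 in mock and 12.23, 11.91 and 12.10 in NJ15.

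The genes nearest to HAT2 were AT4G23870 at 0.069, AT2G41780 at 0.076 and AT1G06980 at 0.078, with the median candidate at 0.218. For LBD29 they were AT4G11290, AT3G20450 and AT5G12940, at 0.025, 0.029 and 0.035 against a median of 0.164. IAA29 had no close match. Its nearest, AT3G29240 and AT2G29290, were at 0.259 and 0.263, and AT5G48900 at 0.287, where the median candidate was at 0.438. AT2G29290 shared the low NJ15 replicate 1 and high NJ15 replicate 3 of IAA29, with 6.66 and 8.02, but lay above its own mean in mock replicate 2, where IAA29 lay below its own.

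The rest of the auxin pathway was sparsely covered by named probe sets. The platform annotation did not list 8730 probe sets, so genes without a named probe set may still be on the array. Lists of 274 auxin-related genes included the 6 genes and 18 others with a named probe set, and 12 of the 18 were flat. Of 32 Aux/IAA genes 7 had a named probe set, and IAA18, IAA30, IAA31, IAA33 and IAA34 were flat beside the varying IAA20 and IAA29. Of 40 LBD genes and 12 class II HD-ZIP genes those with a named probe set were LBD16, LBD29 and HAT2. The kinase PID2 was flat beside WAG2, as was PUCHI, a transcription factor of lateral root development, and no listed auxin carrier, receptor, response factor or SAUR gene had a named probe set.

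None of these 18 genes passed limma's test over all 22746 probe sets, in either direction, where 44 probe sets (0.193%) passed and 40 of those were flat. None passed in a fit over varying probe sets either, where 4 (0.0651%) passed. An unadjusted limma p under 0.05 was reached by 3 of the 18 over all probe sets, of which 2 were flat, and by 1253 (5.51%) of all 22746. In the fit over varying probe sets it was reached by 1 of the 6 varying relatives and by 473 (7.7%) of all 6144. Nothing is read from these counts. The 6 varying relatives had differences from -0.23 to 0.40 with a median of 0.06, 3 higher and 3 lower in NJ15. The 6 genes described above had a median of 0.02.

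AT1G14130 (DAO1), which encodes an auxin oxidase, had the highest difference of the 6 varying relatives. Its levels were 7.45, 7.57 and 7.36 across mock replicates and 8.00, 7.86 and 7.73 across NJ15 replicates. The groups did not overlap, as was the case for 12.5% of varying probe sets. The difference of 0.40, with a standard error of 0.10, did not pass (limma, adjusted p = 0.715 over all probe sets and 0.343 over varying ones). GH3.3 and WES1, which encode enzymes that conjugate auxin to amino acids, had the highest and lowest differences of the 4 varying GH3 genes, 0.35 and -0.23, and did not pass (limma, adjusted p = 0.849 and 0.943). WES1 had -0.08 without NJ15 replicate 1 and -0.14 without mock replicate 1. As the lists were chosen with earlier results of these data known, the p-values of listed genes are descriptions and nothing is read from them.

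Mock replicate 3 was the lowest mock array in 4 of the 6 varying relatives, against 43.5% of varying probe sets, so nothing is read from this count; for AT1G14130 and WES1 it lay close to the next mock array. GH3.17, a further conjugating enzyme, which was singled out after its values were seen, stood at 9.10, 8.88 and 7.91 across mock replicates and 8.68, 8.38 and 8.54 across NJ15 replicates. Its difference of -0.10 turned to 0.14 without mock replicate 1 and was -0.46 without mock replicate 3, and it did not pass (limma, adjusted p = 1.0). EXO, which encodes a protein that promotes cell expansion, stood at 11.02, 11.04 and 10.48 in mock and 11.13, 10.95 and 10.97 in NJ15, and its difference of 0.17 became -0.01 without mock replicate 3 (limma, adjusted p = 0.964 with all arrays). GH3.9 had its highest level in mock replicate 3, at 6.54 against 6.08 and 6.25 in the other mock arrays.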

How the data were processed

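Total RNA of 6 samples was hybridised to Affymetrix arrays, 1 per sample, after biotin labelling, per the labels' protocols. The deposited values were read as log2 from their range of 5.30 to 14.04. R 2.7.2 was used, per the submitters' processing notes; how background, normalization and summarization were handled is not stated there or in the labels, and signal over background is unknown. The number of arrays limits the precision.

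Values were used as deposited, without 64 control probe sets, a pseudocount or a filter. To remove rounding noise, each probe set was shifted by its first array and rounded to 9 decimals before fitting. NJ15 and mock were compared in limma 3.58.1 (lmFit, then eBayes) under R 4.3.3; p-values were two-sided, adjusted by Benjamini-Hochberg over the 22746 probe sets, and held against 0.05. The standard errors of differences come from this fit. The fit was run on simulated data before use, with independent noise for each probe set. Deviations shared by the probe sets of an array were not simulated, so that run says nothing on them. Tables and figures were made with Python 3.11.15 and matplotlib 3.10.9.

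Probe sets were named through GEO's platform annotation and current symbols taken from a RefSeq table (TAIR10.1), from which no coordinates were used: 13513 probe sets had 1 gene, 503 several, and 8730 were not listed. AT1G14130 was added to its list after the names had been matched.

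The members, gene lists and tests were chosen with earlier results of these data known. Named genes were the 6 members, the 3 varying genes nearest to each by mean absolute difference of mean-centred values, and the relatives with the highest and lowest difference in each list; varying and flat family relatives and marker genes were also named, and GH3.17 and GH3.9 were chosen after their values were seen.

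Same-numbered replicates were not treated as pairs, since the labels state no shared batch. Deviations from the group means correlated across varying probe sets with r = 0.586, -0.305 and 0.192 for numbers 1, 2 and 3. Arrays of different numbers gave r from -0.523 to 0.417, and whether a number marks a pair was not tested. The labels do not say whether replicates came from separate plates, so p-values measure the spread between these samples. Alternatives were other scalings, filters, priors and designs and leaving out each array.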

Additional observations from a re-analysis of the deposited data

How the results depend on the processing

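The differences of the 6 genes kept their signs after quantile normalization, after centring on the common median and with the green marker covariate. Array medians lay between 7.2427 and 7.2737, so centring could hardly move a difference, and neither could the covariate. Quantile normalization moved HAT2 from 0.08 to 0.06. Little is therefore read from the signs kept in these settings. With single arrays left out, LBD16 and WAG2 kept their signs, while LBD29 and HAT2 changed sign in 2 leave-outs each and IAA20 and IAA29 in 1 each. The median of the 6 differences changed sign in 2. Left-out arrays gave LBD16 -0.71 to -0.30, LBD29 -0.13 to 0.05, IAA20 -0.09 to 0.39, IAA29 -0.12 to 0.70, HAT2 -0.10 to 0.24, WAG2 -0.62 to -0.12 and the median -0.13 to 0.07. No gene had several single-gene probe sets, so averaging them was not run.

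The number of probe sets called over the whole table did depend on the processing. Against 44 with limma on the deposited values, 1253 with an unadjusted p under 0.05, it was 0 after quantile normalization (3347 unadjusted), 0 with an intensity trend and robust prior (886), 17165 after centring, 16591 of them flat, 1 without the probe sets of lowest mean, which left 17059, 4 over varying probe sets only, 1 with the green marker covariate and 1 at an adjusted p under 0.01. With the replicate block it was 0 (1208 unadjusted). Leaving out single arrays gave 4 to 15. Centring moved all values of an array by a common amount, those of flat probe sets included. It put the median difference over all probe sets at -0.018, and 16929 of the 17165 calls were lower in NJ15. Why the count moved was otherwise not tested. The replicate block left the differences of the 6 genes as they were, since the numbers are balanced, and LBD16 kept -0.45.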
